A study of Rattus norvegicus with 8 samples.

Results

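Cholesterol genes were followed in the hippocampus and hypothalamus of rats by RNA sequencing of polyadenylated transcripts. The list held 32 genes chosen by name for their roles: 16 enzymes of cholesterol synthesis, 7 regulators and 9 genes of transport, storage and turnover. Of these, 28 were found under their current symbols in both tables, out of 15892 gene symbols that the tables shared. All 8 libraries came from males of the outbred rat strain Sprague Dawley, aged 2 months at the outset. Every animal had 15% fructose in its drinking water and a diet with the omega-3 fatty acid DHA for 6 weeks. There were 4 libraries of hippocampus and 4 of hypothalamus. No library without fructose or without DHA was analysed here, so the values describe this 1 diet and allow no comparison of diets. The labels do not say whether the libraries of a tissue came from separate animals, and errors below measure only the spread between these libraries.

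Brain cholesterol is made in the brain itself, because the blood-brain barrier keeps out the lipoproteins of the blood. Enzymes of the mevalonate pathway build squalene, which is closed to lanosterol and trimmed to cholesterol. The transcription factor encoded by Srebf2 drives the genes of these enzymes when sterols are scarce, and liver X receptors drive export genes when sterols are plentiful. Glia, astrocytes above all, pass cholesterol to neurons on particles that carry apolipoprotein E, and neurons dispose of the excess by hydroxylation.

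Levels are given as FPKM, fragments scaled to transcript length and to library size, so genes of different length can be set beside each other. The authors deposited 1 table for each tissue. Values below were scaled by 1 factor per library, 0.892 to 0.950 for hippocampus and 1.07 to 1.12 for hypothalamus. Lists of 4 values run from replicate 1 to replicate 4. A difference is the mean of log2(FPKM + 1) in hypothalamus minus that in hippocampus, with its standard error (SE). A gene was called higher or lower in hypothalamus when this difference was at least 1 in size, which is 2-fold, and no library of one tissue lay within the range of the other. No test was made between the tissues, because tissue and table coincide. A difference between tables cannot be told apart from one between tissues, and the ubiquitous Gapdh stood at 4.11 to 8.15 FPKM in the hippocampus table against 427 to 716 in that of hypothalamus. Actb, also ubiquitous, was far closer, at 1499 to 1840 FPKM in hippocampus and 1096 to 1470 in hypothalamus. Its difference was -0.32 ± 0.12 (SE).

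Because cholesterol genes are a textbook case of control from the promoter, 4 promoters of genes called in different directions are shown. Each covers the 250 bases before the RefSeq gene start on the rat assembly GRCr8, a later build than the rn5 of the FPKM tables. They are written 5′ to 3′ along the gene, all on the + strand. The Hmgcs1 promoter lies at chr2:53382054-53382303, that of Srebf2 at chr7:115543057-115543306, that of Nsdhl at chrX:155817110-155817359 and that of Cyp51 at chr4:30991443-30991692. Capitals mark the CCAAT box, read as CCAAT or as its reverse complement ATTGG, and in Srebf2 also the core of the sterol regulatory element, ATCACCCCA.
Hmgcs1: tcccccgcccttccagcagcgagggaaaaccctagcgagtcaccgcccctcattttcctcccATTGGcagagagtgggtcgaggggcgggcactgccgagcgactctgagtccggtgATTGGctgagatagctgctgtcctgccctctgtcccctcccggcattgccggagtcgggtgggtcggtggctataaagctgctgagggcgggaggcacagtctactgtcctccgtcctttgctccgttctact
Srebf2: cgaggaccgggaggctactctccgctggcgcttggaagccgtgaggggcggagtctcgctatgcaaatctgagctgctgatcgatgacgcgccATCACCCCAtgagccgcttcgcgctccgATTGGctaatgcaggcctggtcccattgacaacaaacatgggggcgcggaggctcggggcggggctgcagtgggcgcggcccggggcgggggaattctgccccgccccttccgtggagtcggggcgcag
Nsdhl: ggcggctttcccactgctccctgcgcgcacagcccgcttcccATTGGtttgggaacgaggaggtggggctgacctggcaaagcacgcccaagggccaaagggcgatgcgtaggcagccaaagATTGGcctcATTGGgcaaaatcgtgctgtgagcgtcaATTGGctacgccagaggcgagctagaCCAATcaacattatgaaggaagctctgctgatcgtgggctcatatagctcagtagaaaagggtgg
Cyp51: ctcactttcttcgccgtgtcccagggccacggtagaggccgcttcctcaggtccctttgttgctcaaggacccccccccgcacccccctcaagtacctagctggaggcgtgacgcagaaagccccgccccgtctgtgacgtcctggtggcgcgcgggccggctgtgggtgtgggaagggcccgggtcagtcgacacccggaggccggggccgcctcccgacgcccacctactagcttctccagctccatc

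The Nsdhl promoter held 5 CCAAT boxes, between 60 and 203 bases before the start. That of Hmgcs1 held 2, at 128 and 183 bases, that of Srebf2 held 1, at 124 bases, and that of Cyp51 held none of these letters. The sterol regulatory element core stood 148 bases before the start of Srebf2. Promoters of 28 of the 32 genes were matched by symbol, and CCAAT was found on either strand in 19 of them. By role these were 10 of 13 synthesis genes, 4 of 7 regulators and 5 of 8 genes of transport and turnover, against 34% of all 33469 promoters in the table. ATCACCCCA was found only in Srebf2 among the 28, against 0.212% of all promoters. Only these exact letters, on either strand, were searched, so a promoter without them is not shown to lack a sterol regulatory element. Genes of the list were counted once per symbol, whereas the shares over all promoters count every entry, so the units are not alike. Neither motif overlaps the other, and a match is a description of the sequence, not a measured binding site.

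Among the 28 measured genes, 4 were called higher in hypothalamus (Mvd, Nsdhl, Nr1h2 and Apoe) and 4 lower (Hmgcs1, Cyp51, Srebf2 and Soat1). Over the 10554 genes compared, 13.3% were called higher and 13.4% lower, and 26.7% in either direction. The cholesterol genes, with 8 of 28 called, thus lay near the share of all genes. The split depends on the scaling: with FPKM as deposited, 5 of the 28 were called higher and 3 lower, against 18.1% and 9.62% of all genes. The libraries of the tissues did not overlap for 14 of the 28, against 53.4% of all genes. The median difference was -0.09 over the cholesterol genes and -0.04 over all genes. Differences ran from -1.46 for Cyp51 to 2.19 for Apoe, and each role held 1 or 2 genes called in each direction. In bulk tissue such as this, fewer cells of a type and less RNA per cell cannot be told apart.

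**Figure D1:**
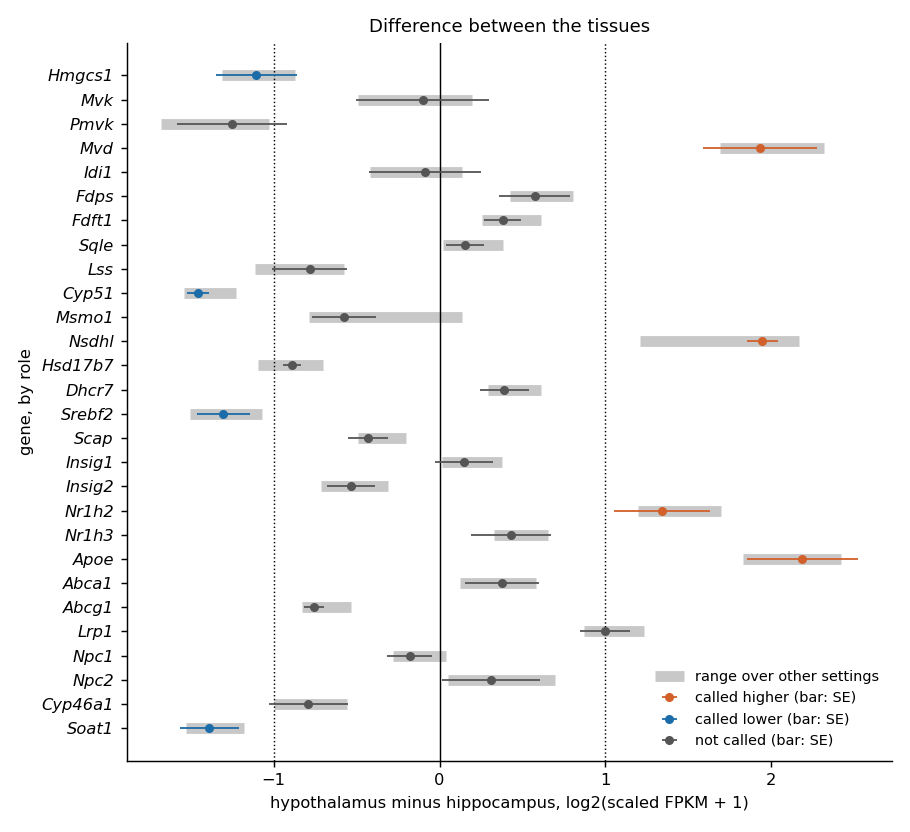
Difference between the tissues for each of the 28 genes, hypothalamus minus hippocampus on log2(scaled FPKM + 1), ordered by role from synthesis (top) to turnover (bottom). Points are means with SE bars over 4 libraries each, orange for genes called higher, blue for genes called lower and dark grey for the rest; light bars span the values under other settings and dotted lines mark a 2-fold difference. Called genes lie on both sides of 0 within each role.

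The early steps lead from acetyl-CoA to farnesyl diphosphate. Hmgcs1, the cytosolic synthase that makes HMG-CoA, had 162, 196, 131 and 141 FPKM in hippocampus and 111, 60.999, 61.1 and 64.2 in hypothalamus. All hypothalamus libraries were lower than all of hippocampus, with replicate 1 nearest to them, and the difference was -1.10 ± 0.24 (SE). It was -0.99 without hippocampus replicate 2 and -0.87 with the FPKM as deposited, both short of 2-fold, so this call depends on 1 library and on the scaling.

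Mvd, the decarboxylase that makes isopentenyl diphosphate, stood the other way. Its level was 15.2, 4.69, 7.48 and 9.10 FPKM in hippocampus and 26.8, 41.3, 39.6 and 34.1 in hypothalamus, a difference of 1.93 ± 0.34 (SE). The lowest hypothalamus library was still above the highest of hippocampus, and the ratio of the means was 3.89. The 2 kinases between these enzymes act on mevalonate in turn. Mvk, which acts before Pmvk, had 40.4, 11.5, 30.2 and 37.2 FPKM in hippocampus and 25.3, 23.6, 25.9 and 25.8 in hypothalamus. The hypothalamus values were nearly level and lay inside the range of hippocampus, and the difference was -0.10 ± 0.40 (SE).

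Pmvk had 48.9, 24.01, 39.2 and 56.5 FPKM in hippocampus and 24.5, 13.1, 13.2 and 16.6 in hypothalamus. Its difference of -1.25 ± 0.33 (SE) was past 2-fold, but hypothalamus replicate 1 lay above hippocampus replicate 2, so it was not called. Leaving out either of these libraries parted the tissues, at -1.49 without hippocampus replicate 2 and -1.44 without hypothalamus replicate 1. Idi1, which isomerises isopentenyl diphosphate, had means of 18.6 ± 6.57 FPKM (SD, n = 4) in hippocampus and 17.8 ± 7.52 (SD, n = 4) in hypothalamus, with ranges that overlapped. Fdps, which joins the isoprene units to farnesyl diphosphate, had 97.001, 65.1, 80.4 and 120.04 FPKM in hippocampus and 114, 119.8, 151 and 147 in hypothalamus. It had the highest level of the early steps in hypothalamus, while Hmgcs1 had it in hippocampus.

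Because all values of a library share its scaling, a ratio of 2 genes within a library does not depend on the factor between the tables. Hmgcs1 exceeded Mvd by 10.7 to 41.8 times (median 16.5) in the hippocampus libraries and by 1.48 to 4.15 times (median 1.71) in those of hypothalamus, with no overlap. This pair, and that of Cyp51 and Nsdhl below, was chosen after the values had been seen. The genes of each pair were called in opposite directions, so the parting of their ratios follows from those calls and is no further support. A difference between the tables that touches a single gene also remains in such a ratio. Of the 6 early genes measured, 1 was called higher, 1 lower and 4 neither.

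**Figure D2:**
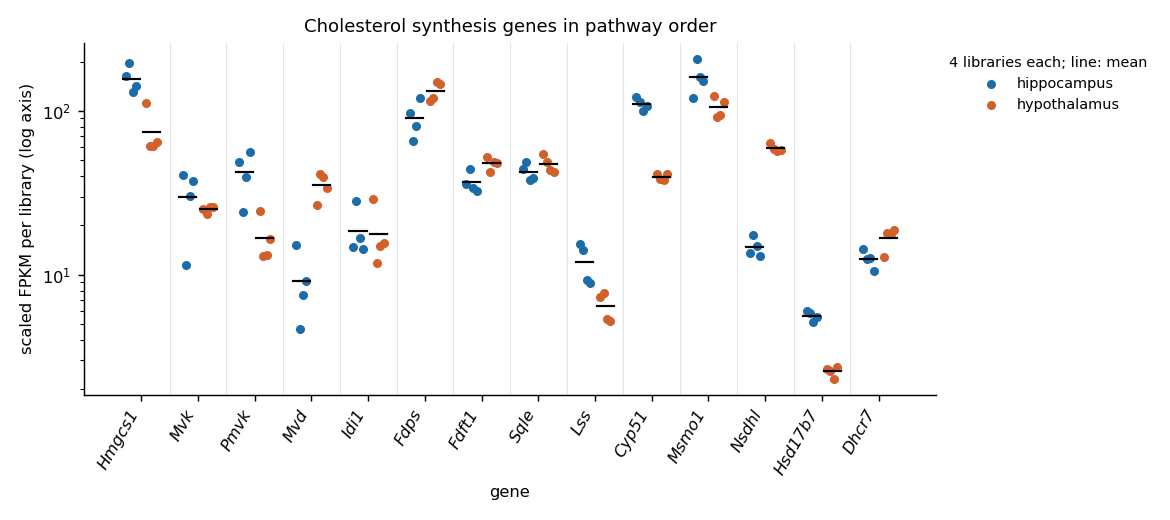
Scaled FPKM of the 14 synthesis genes in each library on a log axis, in pathway order, with hippocampus in blue and hypothalamus in orange. Points are the 4 libraries of a tissue and lines their mean. Mvd and Nsdhl stand higher in hypothalamus, Hmgcs1 and Cyp51 lower, and most other pairs of groups touch or overlap.

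The later enzymes turn farnesyl diphosphate into squalene and then cholesterol. Fdft1, squalene synthase, had 36.6 ± 5.10 FPKM (SD, n = 4) in hippocampus and 47.8 ± 3.97 (SD, n = 4) in hypothalamus. Sqle, the epoxidase that acts on squalene, had 42.4 ± 4.98 and 47.3 ± 5.49 (SD, n = 4 each). Both enzymes overlapped between the tissues and differed by 0.38 ± 0.11 (SE) and 0.16 ± 0.11 (SE). Lss, which closes the ring to lanosterol, had 15.5, 14.2, 9.27 and 8.85 FPKM in hippocampus and 7.33, 7.71, 5.40 and 5.25 in hypothalamus. The libraries did not overlap, but the difference of -0.78 ± 0.23 (SE) was under 2-fold.

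Cyp51, the demethylase that acts on lanosterol, had 122, 113, 100.3 and 108 FPKM in hippocampus and 41.04, 38.4, 37.8 and 41.1 in hypothalamus. Both groups were tight, and every hypothalamus library was far below every hippocampus one. The difference was -1.46 ± 0.07 (SE), and the mean in hippocampus was 2.79 times that in hypothalamus. Msmo1, the oxidase that starts removal of the methyl groups left on the ring, had 119, 208, 161 and 152 FPKM in hippocampus and 124, 92.2, 94.95 and 113 in hypothalamus. Its mean was the highest of the later enzymes in both tissues, and its libraries overlapped between the tissues. In hippocampus this rank rests on a sum over 2 loci, with means of 93.5 and 66.7 FPKM, each below the 110.6 of Cyp51.

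Nsdhl, the dehydrogenase that follows Msmo1 in removing these groups, had 13.6, 17.4, 15.1 and 13.1 FPKM in hippocampus and 64.1, 58.4, 57.2 and 57.9 in hypothalamus. All hypothalamus libraries were well above those of hippocampus, and the difference was 1.94 ± 0.09 (SE). Within a library, Cyp51 stood at 6.48 to 8.98 times (median 7.44) the level of Nsdhl in hippocampus and at 0.640 to 0.709 times (median 0.659) in hypothalamus, so with summed loci the order of the 2 enzymes differed between the tables.

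Nsdhl, Msmo1, Fdps and Nr1h2 were each listed at 2 loci in 1 of the tables, and Sqle in both, and their FPKM were summed. In hypothalamus, Nsdhl had 20.2, 23.9, 25.3 and 25.4 FPKM at the locus listed first and 43.9, 34.5, 31.96 and 32.5 at the other. Set against the single hippocampus locus, the differences were 0.65 ± 0.11 (SE) and 1.22 ± 0.13 (SE). With the locus listed first taken alone, the difference is below 2-fold, so this call rests on the sum or on the other locus. The order of Cyp51 and Nsdhl in hypothalamus rests on the sum as well: Cyp51 was above the locus listed first in 4 of 4 libraries and above the other in 3 of 4. Msmo1 in hippocampus had 117, 105, 75.2 and 76.3 FPKM at the locus listed first and 1.76, 103, 86.1 and 75.7 at the other. The low value of 1.76 was in replicate 1 alone. The Msmo1 difference was -0.58 ± 0.19 (SE) with the sum and 0.19 ± 0.19 (SE) with the locus listed first, a change of sign.

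For Fdps in hippocampus, the locus listed first held 1.99, 2.84, 1.28 and 2.67 FPKM, a small share of the sum. Set against the hypothalamus locus, it gave a difference of 5.41 ± 0.20 (SE), and the other locus gave 0.61 ± 0.22 (SE). Sqle had means of 32.5 and 9.91 FPKM at its loci in hippocampus and 35.5 and 11.8 in hypothalamus. The tables hold no coordinates, so their loci cannot be matched, and the 4 pairings gave Sqle differences from -1.39 to 1.77.

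**Figure D3:**
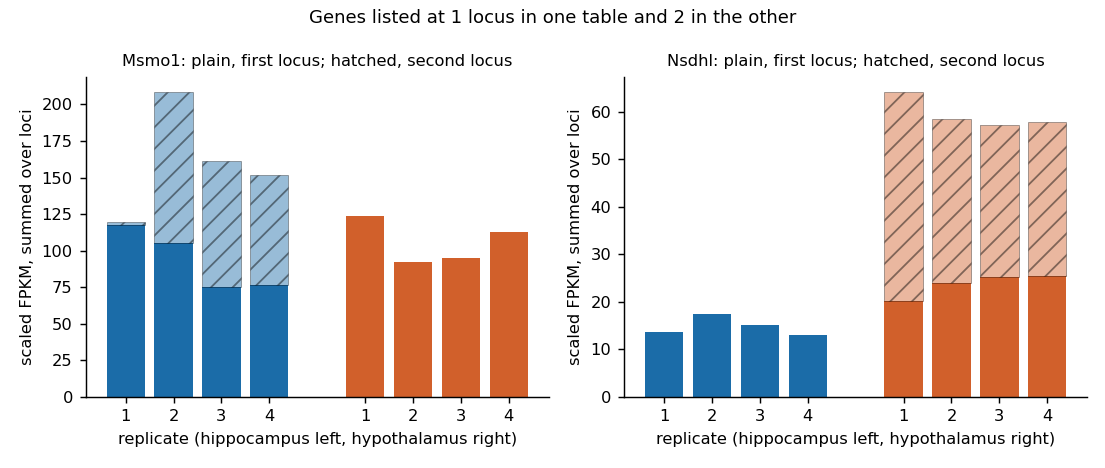
Scaled FPKM per library for Msmo1 (left) and Nsdhl (right), with hippocampus in blue and hypothalamus in orange. Plain bars show the locus listed first in the table and hatched bars the other one, stacked to the sum, for genes that have 1 locus in one table and 2 in the other. Hippocampus replicate 1 has almost none of its Msmo1 at the hatched locus, and each Nsdhl locus in hypothalamus exceeds the whole bar of every hippocampus library.

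Hsd17b7, the reductase that completes removal of these groups, had 5.99, 5.81, 5.16 and 5.53 FPKM in hippocampus and 2.66, 2.59, 2.32 and 2.74 in hypothalamus. It was the lowest enzyme of the later steps in both tissues, and its libraries did not overlap. Its difference was -0.89 ± 0.05 (SE), and -1.09 with a pseudocount of 0.1 in place of 1, which puts it past the limit. Dhcr7, the reductase of the last step by way of dehydrocholesterol, had 12.5 ± 1.61 FPKM (SD, n = 4) in hippocampus and 16.8 ± 2.66 (SD, n = 4) in hypothalamus, with overlap. Of the 8 later enzymes, 1 was called higher, 1 lower and 6 neither, with a median difference of -0.21.

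The enzymes Acat2 and Sc5d were not listed under these symbols and are not counted among the 28. RefSeq synonyms give Sc5dl as an older name of Sc5d, the sterol desaturase before Dhcr7. Sc5dl had 58.8 ± 10.2 FPKM (SD, n = 4) in hippocampus and 55.9 ± 3.68 (SD, n = 4) in hypothalamus, a difference of -0.06. Acat3 is given there as a synonym of Acat2, but whether it is that gene in these tables is unsure. It was read in the hippocampus table alone, at 31.4, 12.9, 39.7 and 56.1 FPKM. The regulator Srebf1 and the transport gene Lcat were likewise not matched in both tables, and no values are given for them.

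Within a tissue, the synthesis genes had their highest and lowest values in different libraries. In hippocampus, where the mean reached 5 FPKM for 14 of them, 6 were highest in replicate 1, 6 in replicate 2, 0 in replicate 3 and 2 in replicate 4. The lowest value fell in replicate 1 for 1 gene, in replicate 2 for 4, in replicate 3 for 4 and in replicate 4 for 5. Mvk, Pmvk and Mvd were among those lowest in replicate 2. Over all genes, hippocampus replicate 2 was most often the extreme library, with 37.7% of genes highest and 39.5% lowest there. The lowest values of the synthesis genes did not gather in replicate 2 in this way. In hypothalamus, replicate 1 held the highest value of 8 of 13 synthesis genes and the lowest of 3, against 41% and 41.9% of all genes. The median deviation of the synthesis genes from their tissue mean was small, between -0.09 and 0.11 in hippocampus and between -0.10 and 0.13 in hypothalamus. Mvd was highest in hippocampus replicate 1 and lowest in hypothalamus replicate 1.

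**Figure D4:**
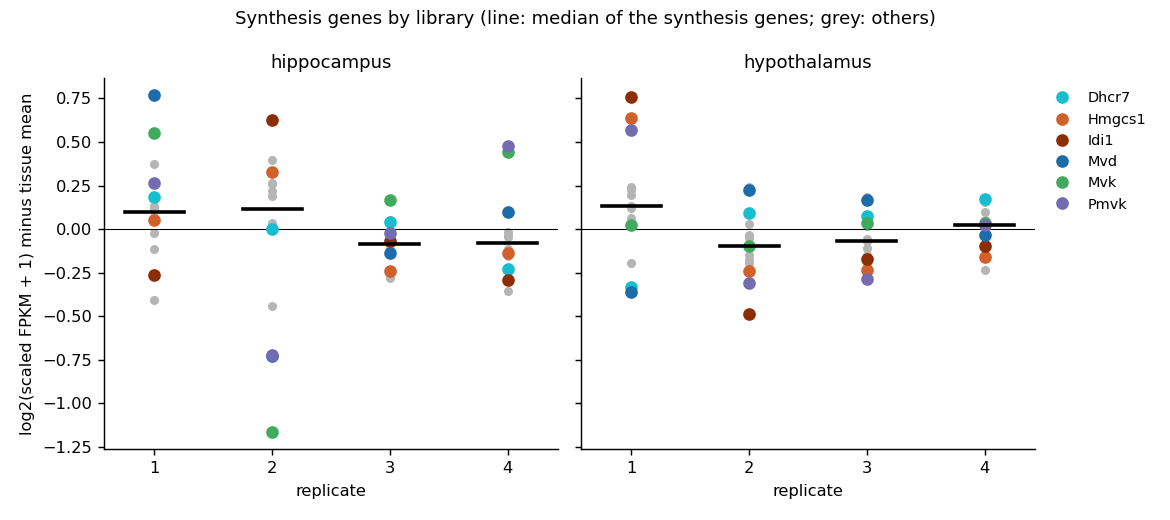
Deviation of each synthesis gene from its tissue mean, log2(scaled FPKM + 1), by library, with scaling within each table. Points are genes whose mean reached 5 FPKM, 6 of them coloured and named, and thick lines are the median over genes. Hippocampus replicate 2 holds both high (Idi1, Hmgcs1) and low (Mvk, Pmvk, Mvd) genes, and hypothalamus replicate 1 has Idi1, Hmgcs1 and Pmvk high with Mvd and Dhcr7 low.

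Among the regulators, Srebf2 had 134, 141, 101 and 106 FPKM in hippocampus and 37.8, 51.4, 52.5 and 50.9 in hypothalamus. Its mean was the highest of the regulators in both tissues, though in hypothalamus its libraries overlapped those of Nr1h2 and Insig1. Its own libraries did not overlap between the tissues, the difference was -1.30 ± 0.16 (SE), and the hippocampus mean was 2.50 times that of hypothalamus. Of the synthesis enzymes, Hmgcs1 and Cyp51 were called in the same direction as Srebf2, Mvd and Nsdhl in the opposite one, and 10 of 14 were not called.

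Scap, the escort that carries this factor to the Golgi, had 39.7, 30.6, 33.4 and 36.4 FPKM in hippocampus and 21.003, 28.2, 26.6 and 27.2 in hypothalamus, apart but under 2-fold at -0.43 ± 0.12 (SE). Insig1 and Insig2 encode the proteins that hold Scap back when sterols are plentiful. Insig1 had 34.3, 36.2, 27.5 and 33.000 FPKM in hippocampus and 48.1, 28.3, 36.7 and 34.3 in hypothalamus, and its libraries overlapped. Insig2 had 19.6, 26.4, 22.3 and 21.7 and 19.7, 14.01, 13.9 and 13.7, where only hypothalamus replicate 1 reached the range of hippocampus. Insig1 stood at 1.23 to 1.75 times (median 1.44) the level of Insig2 within the hippocampus libraries and at 2.02 to 2.64 times (median 2.47) within those of hypothalamus. These ranges did not overlap.

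Nr1h2 and Nr1h3 encode the liver X receptors beta and alpha, which sense oxysterols. Nr1h2 had 22.3, 12.7, 14.5 and 17.9 FPKM in hippocampus and 27.1, 50.6, 58.6 and 43.4 in hypothalamus, a difference of 1.34 ± 0.29 (SE). The groups were apart, with hypothalamus replicate 1 nearest to hippocampus. The hypothalamus values are sums over 2 loci, with 0.314, 0.420, 0.763 and 0 FPKM at the one listed first and nearly all of the level at the other. The other locus alone gave a difference of 1.33 ± 0.29 (SE) and the one listed first -3.70 ± 0.24 (SE), in the opposite direction. Nr1h3 was the lowest regulator in both tissues, with 1.72, 1.43, 1.83 and 3.32 FPKM in hippocampus and 2.00, 3.81, 2.92 and 3.72 in hypothalamus, which overlapped. The beta form was 5.39 to 12.97 times (median 8.38) the alpha form in hippocampus and 11.7 to 20.03 times (median 13.4) in hypothalamus. Of the 6 regulators measured, 1 was called higher, 1 lower and 4 neither, with a median difference of -0.14.

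Apoe, the main apolipoprotein of brain lipoproteins, was the most abundant gene of the list in both tissues. It had 1138, 454, 787 and 1209.6 FPKM in hippocampus, with replicate 2 lowest, and 4328, 3592, 3396 and 4009 in hypothalamus. Every hypothalamus library was above every hippocampus one, with a difference of 2.19 ± 0.33 (SE) and a ratio of means of 4.27. Apoe ranked above 99.75% of the genes in the hippocampus table. The markers of astrocytes, which make most apolipoprotein E, had a summed level of 3325 to 3750.3 FPKM in hippocampus and 2740.4 to 3527 in hypothalamus, and none was at 0. Of the 8 astrocyte markers, 2 were called higher and 1 lower, and their part in the Apoe difference was not tested.

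Abca1 and Abcg1 encode transporters that load cholesterol onto lipoproteins. Abca1, the lowest gene of this role apart from storage, had 5.57, 10.2, 6.92 and 6.58 FPKM in hippocampus and 13.3, 8.77, 7.91 and 9.06 in hypothalamus, with overlap. Abcg1 had 29.6, 26.97, 26.6 and 24.4 and 14.8, 16.2, 15.6 and 15.3, with no overlap and a difference of -0.76 ± 0.06 (SE), under 2-fold. Abcg1 stood at 2.64 to 5.31 times (median 3.77) the level of Abca1 in hippocampus and 1.11 to 1.98 times (median 1.77) in hypothalamus, and these ranges did not overlap.

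Lrp1, a receptor that takes up apolipoprotein E particles, had 90.5, 85.9, 82.6 and 72.8 FPKM in hippocampus and 125, 194, 176 and 178 in hypothalamus. The libraries were apart, and the difference of 0.998 ± 0.15 (SE) fell just short of the limit. It passed the limit in 8 of 20 other settings. Of its 4 values in hippocampus, 3 carried the status FAIL, so they may be no full estimates. Npc1 and Npc2 together move cholesterol out of lysosomes. Npc1 had 12.5, 18.6, 16.6 and 13.7 FPKM in hippocampus and 13.8, 12.96, 14.6 and 11.98 in hypothalamus, and Npc2 had 108, 62.9, 157 and 128 and 119, 153, 149 and 119. Both overlapped between the tissues, and Npc2 stood at 3.38 to 9.41 times (median 8.99) the level of Npc1 in hippocampus and 8.65 to 11.8 times (median 10.1) in hypothalamus.

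Cyp46a1, the neuronal hydroxylase whose product leaves the brain, had 136, 62.1, 91.6 and 111 FPKM in hippocampus and 55.2, 54.7, 56.5 and 54.7 in hypothalamus. Hypothalamus was nearly level, and the groups were apart at -0.79 ± 0.24 (SE), under 2-fold. Soat1, which esterifies cholesterol for storage, had 14.01, 20.6, 16.3 and 12.8 FPKM in hippocampus and 6.29, 6.00, 5.14 and 4.24 in hypothalamus. It was called lower, with a difference of -1.39 ± 0.18 (SE) and no overlap. Neuron markers were lower in hypothalamus as a sum, 2287 to 2824 FPKM in hippocampus and 1069 to 1232 in hypothalamus. Of these markers, 2 of 6 were called lower (Syt1 and Nefl) and none was at 0. However, Snap25, Syt1, Stmn2, Nefl and Map2 were summed over 2 loci in hippocampus and read at 1 in hypothalamus. Their loci were not compared singly, so the lower sum is not shown apart from this adding of loci. The part of neuron markers in the values of Cyp46a1, Soat1 and the other genes with lower levels was not tested. Of the 8 genes of transport, storage and turnover, 1 was called higher, 1 lower and 6 neither, with a median difference of 0.07.

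**Figure D5:**
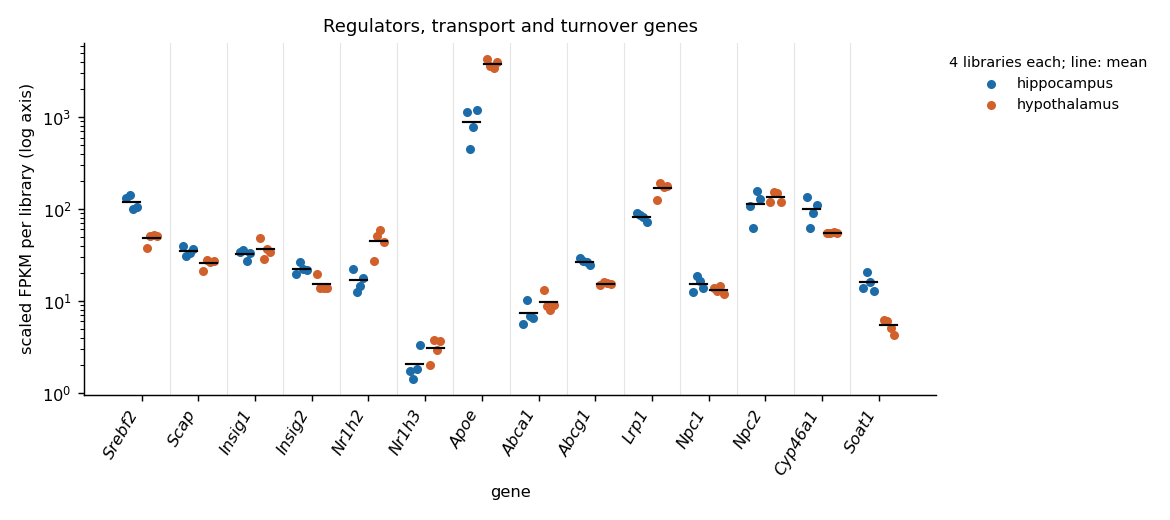
Scaled FPKM of the 6 regulators and 8 genes of transport, storage and turnover in each library on a log axis, with hippocampus in blue and hypothalamus in orange. Points are the 4 libraries of a tissue and lines their mean. Apoe lies far above the other genes in both tissues and higher in hypothalamus, Nr1h2 is also higher there, and Srebf2 and Soat1 are lower.

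When the 28 genes were ordered by their mean level, Apoe came out on top in both tissues. In hippocampus it was followed by Msmo1 (as a sum over 2 loci), Hmgcs1 and Srebf2, and in hypothalamus by Lrp1, Npc2 and Fdps. Neighbours in the order overlapped for 24 of 27 pairs in hippocampus and 22 of 27 in hypothalamus, so most ranks next to each other do not differ beyond the spread. Nr1h3 was last in hippocampus, apart from Hsd17b7 above it, and Hsd17b7 was last in hypothalamus, overlapping Nr1h3.

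Other genes of the pathway gave a similar picture. Of 32 looked for, 29 were in both tables and 26 had a high enough level to be compared. Among these, 4 were called higher, 3 lower and 19 neither, with a median difference of -0.02. Over all genes 13.3% were called higher and 13.4% lower, so these counts lay near the share of all genes. Apod, another lipid-carrying apolipoprotein, had 117, 74.6, 149 and 158 FPKM in hippocampus and 453, 569, 687 and 924 in hypothalamus. Pltp, a phospholipid transfer protein, had 66.4, 46.8, 93.1 and 94.5 and 252, 321, 375 and 376. Both were apart between the tissues, as Apoe was, with differences of 2.40 ± 0.33 (SE) and 2.16 ± 0.27 (SE).

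Ch25h, which makes an oxysterol, was called higher, with 2.76, 0.267, 0.532 and 0.672 FPKM in hippocampus and 5.83, 11.1, 5.30 and 5.56 in hypothalamus, a difference of 2.03 ± 0.41 (SE). Nceh1, a hydrolase of cholesterol esters and so the counterpart of Soat1, had 60.3, 95.2, 69.8 and 67.1 and 34.4, 25.3, 24.1 and 21.3. It was called lower, at -1.44 ± 0.20 (SE), as Soat1 was, with no overlap between the tissues. The hippocampus values of Nceh1 are sums over 2 loci, against 1 locus in hypothalamus, while Soat1 had 1 locus in each. The Nceh1 loci were not compared singly, so whether its call rests on the sum was not tested.

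The tissue labels were checked against marker genes. Markers of hippocampal pyramidal and granule neurons summed to 885 to 1465 FPKM in hippocampus and 19.6 to 23.8 in hypothalamus, and all 5 were called lower. Among them, Slc17a7, Neurod6 and Prox1 were summed over 2 loci in hippocampus and read at 1 in hypothalamus. Hypothalamic peptide genes summed to 2.86 to 9.85 FPKM in hippocampus and 5689.6 to 10706 in hypothalamus, and all 6 were called higher. Oligodendrocyte markers summed to 4226 to 6105 FPKM in hippocampus and 5509 to 9207 in hypothalamus, with 2 of 9 called higher. Microglia markers summed to 133 to 212 FPKM in hippocampus and 193 to 248 in hypothalamus, and endothelial markers to 91.9 to 120.5 FPKM in hippocampus and 54.6 to 68.05 in hypothalamus. Choroid plexus markers stood at 59.8, 81.04, 6849 and 5113 FPKM in hippocampus and 33.2 to 114 in hypothalamus, so hippocampus replicates 3 and 4 stand apart from the others. Without these 2 libraries, 4 of the cholesterol genes were called higher and 5 lower, with Lss added at -1.11, and the 8 calls above were as before. Without the libraries in which genes were most often extreme, hippocampus replicate 2 and hypothalamus replicate 1, 5 were called higher and 5 lower.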

How the data were processed

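Libraries were made from poly-A selected RNA of both tissues and sequenced on Illumina equipment, as the labels' protocols state. FPKM were deposited by the authors in 1 table for each tissue, with a status beside each value. Cuffdiff, Cufflinks, Bowtie, Bowtie2, TopHat and TopHat2 and the build rn5 are named in the submitters' processing notes, without roles or order. Of their versions and options nothing is given in the sources used here. Status was FAIL or HIDATA for 82 and 16 of 72348 values in hippocampus and for 44 and 12 of 71048 in hypothalamus; these values were kept, and left out in an alternative.

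Values of all loci with the same symbol were added and scaled by a median-of-ratios factor per library over the shared symbols (Python 3.11.15, pandas 2.3.3, numpy 2.4.6); values within a tissue used factors from its own table. Genes whose mean reached 1 FPKM were compared as log2(FPKM + 1), a scale that shrinks differences at low levels. The calculation was tested on simulated data with independent noise and planted changes. Such data hold no difference between tables, so they cannot bear on whether the calls made here reflect the tissue. The number of reads is unknown, so no counting interval is given. Low FPKM of replicates 2 to 4 fell on shared fragment steps for 86.7 to 92.0% of loci, but with replicate 1 for 8.20 to 10.6%, so whole reads were not recovered. Replicate 1 thus stood apart from the other replicates in both tables, and the reason was not tested. Without replicate 1 of both tissues, 5 of the 28 genes were called higher and 5 lower, Lrp1 and Pmvk being added. No pair of libraries held identical values above 0.

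The genes, lists and rules were chosen with earlier results of these data known. All 32 genes were to be named, with values in every library for those called, for the highest and lowest of each role, for 5 pairs and for Apoe, Cyp46a1 and Soat1, and of the other pathway genes those called; some that the rule names are not reported here. The Abca1 and Abcg1 pair is given as Abcg1 over Abca1. The Hmgcs1 to Mvd and Cyp51 to Nsdhl ratios, the motifs, the promoters shown, the coloured genes and some alternatives were chosen after values had been seen. Promoters are from RefSeq.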

Additional observations from a re-analysis of the deposited data

Results flagged for a closer look

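Of 56 groups of 4 libraries, one for each gene and tissue, 3 held a library far from the others by Dixon's criterion (gap to the nearest library over the whole range); chance alone gives about 1 in 20 such groups. All lay in hypothalamus replicate 1, a library in which 41% of all genes had their highest value and 41.9% their lowest. Hmgcs1 stood at 111 FPKM there, against 60.999 to 64.2 in the other hypothalamus libraries. Srebf2 was at 37.8 FPKM, below the others at 50.9 to 52.5. Insig2 was at 19.7 FPKM, above the others at 13.7 to 14.01. Without this library the differences from hippocampus were -1.31 for Hmgcs1, -1.19 for Srebf2 and -0.65 for Insig2, so the calls of Hmgcs1 and Srebf2 were kept.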

How the results depend on the processing

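Over 20 other settings, 4 or 5 genes were called higher, except 2 of the 23 with a single locus per table, and 3 to 5 were called lower. Leaving out 1 library at a time gave 4 to 5 in either direction. FPKM as deposited moved the median of all genes to 0.17 and the medians of synthesis, regulator and transport genes to 0.13, 0.087 and 0.29, so these medians follow the scaling; 1912 genes in all were then called higher and 1018 genes lower, against 1402 and 1414. Regulators had a median of -0.43 with a mean of at least 5 FPKM and -0.48 with a single locus per table, where synthesis genes had -0.49, both over fewer genes. Without hippocampus replicate 2 and hypothalamus replicate 1 together the synthesis median was -0.31. Leaving out 1 library at a time, the medians ran -0.22 to 0.00 for synthesis, -0.19 to -0.10 for regulators and -0.02 to 0.12 for transport and turnover. Calls of Mvd, Apoe, Cyp51, Srebf2 and Soat1 were kept in every setting run for them. Those of Nsdhl and Nr1h2 were kept too, except with the hypothalamus locus listed first taken alone (0.65 and, turned in direction, -3.70 ± 0.24 (SE)); that of Hmgcs1 was lost as deposited (-0.87), without hippocampus replicate 2 (-0.99) and under upper-quartile scaling (-0.99). Cyp46a1 was called lower without hippocampus replicate 2. With the replicate number as a block, 4 genes were called higher and 5 lower, Pmvk being added. Correlations between the deviations of same-numbered libraries were -0.13, -0.08, 0.04 and 0.20 across 7050 genes. Those between libraries of different numbers ran from -0.26 to 0.22. These values cannot decide whether the numbers pair the samples, because tissues of the same animal need not deviate together. Without values of status FAIL or HIDATA, Lrp1 keeps 1 hippocampus library, and the ratios within a library were as before.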
